A study of Homo sapiens with 6 samples.

Results

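The 10 genes described here take up, reduce, store, release, export or sense cellular iron, or break down heme. They are TFRC, STEAP3 and SLC11A2 (uptake), FTH1, FTL and NCOA4 (storage), SLC40A1 (export), HMOX1 (heme breakdown), and ACO1 and IREB2 (sensing). They were picked by name for their known roles, and all 10 were found among the 60671 annotated human genes of the deposited expression matrix. RNA-seq had been performed on MDA-MB-231 xenografts. MDA-MB-231, a line of human triple-negative breast cancer cells, was used here with genotype WT and had been injected with Matrigel into the mammary fat pads of female NSG mice, which lack T, B and NK cells but keep their own stroma, vessels and macrophages. The samples were cut from the core of the tumor (TC, n = 3) or from its margin (TM, n = 3), and both groups shared the cell line, the genotype and the orthotopic injection. The labels do not say whether a core and a margin sample came from one tumor. The comparison of TC with TM asks how transcript levels differ between 2 zones of one kind of tumor.

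A cell takes up iron mainly as transferrin, which binds the transferrin receptor and is carried into endosomes, where ferric iron is reduced and passed to the cytosol. Spare iron is held in ferritin, a shell of heavy and light chains, and is freed again when ferritin is delivered to lysosomes. Iron regulatory proteins bind a short RNA hairpin, the iron-responsive element (IRE), when iron is scarce. Binding in a 5′ UTR blocks translation and binding in a 3′ UTR slows RNA decay, so part of this control acts on translation and is not seen in an RNA level.

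The hairpins are shown first because they are the sequence by which these transcripts are tied to iron sensing. The search used GENCODE v29 transcripts on GRCh38 and asked for a C, 5 bases, the loop CAGTGN and 5 bases able to pair with the first 5, with G to T pairs allowed. An element of this kind lay in a UTR of 4 of the 10 genes. In the lines below, written 5′ to 3′ with T for U, the capitals mark the 6 bases of the loop and the flanks hold the C and the stem.
TFRC 3′ UTR, chr3:196050979-196051007, minus strand: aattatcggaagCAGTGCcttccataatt
TFRC 3′ UTR, chr3:196050575-196050603, minus strand: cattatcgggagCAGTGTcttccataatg
TFRC 3′ UTR, chr3:196050510-196050538, minus strand: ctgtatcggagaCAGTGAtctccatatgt
TFRC 3′ UTR, chr3:196050463-196050491, minus strand: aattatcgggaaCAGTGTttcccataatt
FTH1 5′ UTR, chr11:61967574-61967602, minus strand: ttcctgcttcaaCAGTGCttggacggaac
FTL 5′ UTR, chr19:48965335-48965363, plus strand: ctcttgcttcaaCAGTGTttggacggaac
SLC40A1 5′ UTR, chr2:189580661-189580689, minus strand: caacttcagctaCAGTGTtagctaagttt

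The elements of FTH1 and FTL had the same base at 26 of 29 positions, although the genes lie on chromosomes 11 and 19. The loop began 41 bases from the start of 1 of the 5 FTH1 transcripts that hold the element, whose 5′ UTRs differ in length. It began 46 bases from the start of the FTL transcript and 210 bases from the start of the SLC40A1 transcript. The 4 TFRC elements lay in the 3′ UTR of all 3 annotated coding transcripts and differed from each other at 4 to 11 of 29 positions. Across all annotated genes, a motif of this kind was found in a 5′ UTR of 0.164% of genes and in a 3′ UTR of 0.672%. With 1 unpaired base allowed in the 3′ side of the stem, the shares were 0.259% and 1.11%, and matches appeared in the 3′ UTR of SLC11A2 and IREB2.
SLC11A2 3′ UTR, chr12:50988269-50988297, minus strand: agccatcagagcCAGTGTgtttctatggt
IREB2 3′ UTR, chr15:78500969-78500997, plus strand: catttgctttcaCAGTGAtgagtgagagg

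The SLC11A2 match lay in 5 of 11 coding transcripts of that gene and the IREB2 match in 1 of 2. The FTH1 element was in 5 of 6 coding transcripts. A match is a string of letters and was not tested for binding. The matrix sums all transcripts of a gene, so forms with and without an element could not be told apart in the values below.

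Values are TPM, a transcript abundance corrected for transcript length and scaled to 1000000 per sample, as deposited by the authors. Levels of different genes can therefore be compared. Gene positions are those of GENCODE v29 on GRCh38. TPM keeps no sequencing depth, so precision rests on the spread between samples. TC was compared with TM by limma on log2(TPM + 1), across the 13861 genes that reached 1 TPM in 3 or more of the 6 samples. Differences are TC minus TM, and adjusted p-values are Benjamini-Hochberg values over all tested genes, with 0.05 as the threshold. P-values measure the spread between these samples, which the labels do not tie to separate animals, although the study counts mice as its replicates.

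Of 14 listed markers of the line, VIM stood at 3797 to 5283 TPM and ESR1 at no more than 0.13 TPM. ERBB2 stood at 22.3 to 24.1 TPM in TC and at 30.8 to 40.7 TPM in TM. Counts of annotated genes above 0 ran from 21063 to 21942 in TC and from 22678 to 23216 in TM, and mitochondrially encoded genes took 6.08% to 8.82% of TPM in TC and 9.23% to 11.1% in TM. Skeletal muscle markers, 14 genes found of 15 listed, summed to 8.65 to 12.3 TPM in TC, and to 272, 685 and 6.34 TPM in TM replicates 1, 2 and 3. Fibroblast markers summed to 66.3 to 226 TPM in TC and to 479, 1007 and 91.5 TPM in TM. Macrophage markers summed to 96.3 to 110 TPM in TC and 103 to 113 TPM in TM, most of it CD68, with CD163 at no more than 0.02 TPM and TYROBP at 0. Erythroid markers, a cell type rich in TFRC, summed to 1.10 to 6.93 TPM in TC and 0.29 to 4.82 TPM in TM, with 8 of 12 at 0 in every sample. Endothelial markers summed to 29.1 to 35.1 TPM in TC and 31.8 to 45.1 TPM in TM, most of it ESAM. Adipocyte markers summed to 16.4 to 29.4 TPM in TC and 17.2 to 31.1 TPM in TM, most of it PPARG. Stroma, vessels, muscle and blood cells of these xenografts are from mouse, while the matrix lists human genes. The sums of their markers hold only reads assigned to human genes and do not measure the amount of such cells. The part of these marker differences in the values below was not tested. In bulk tissue, fewer cells of a type and less RNA per cell cannot be told apart.

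Transcripts of the ferritin chains were far above the other 8 genes in every sample, and none of the 9 tested iron genes passed the threshold between core and margin. Of the 9, 0 were called by limma, against 0.137% of all tested genes (19 of 13861). At an unadjusted p under 0.05 the count was 0 of 9, against 16.2% of all tested genes. TC and TM values did not overlap for 1 of the 9, STEAP3, against 22.2% of all tested genes. There were 3 genes with a higher TC estimate (TFRC, FTH1 and FTL) and 6 with a lower one. Of all tested genes, 33.0% had a higher TC estimate. The median difference of the 9 was -0.12 on the log2 scale and that of all 13861 genes was -0.14, and 7 of the 9 differed by less than their own standard error.

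**Figure D1:**
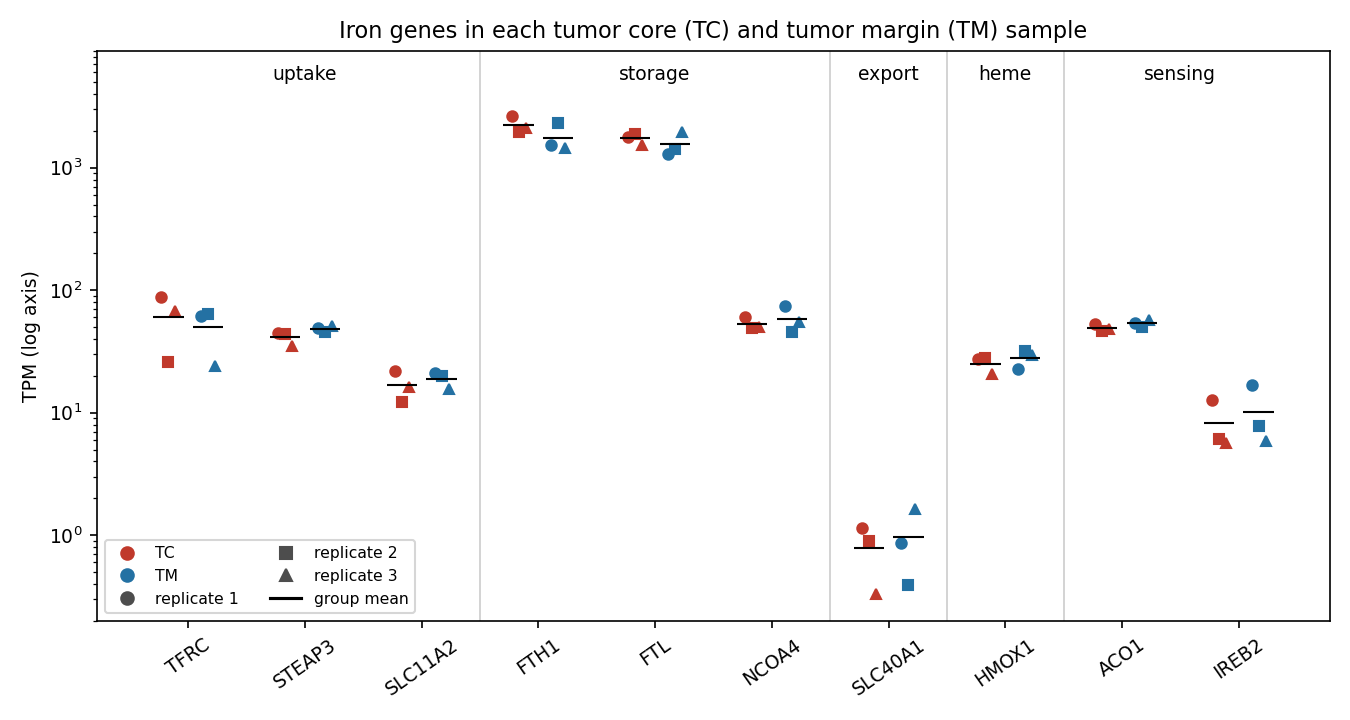
TPM (log axis) of each of the 10 iron genes in 3 TC samples (red) and 3 TM samples (blue), with the replicate number as the symbol and the group mean as a bar. FTH1 and FTL lie between 1294 and 2628 TPM, SLC40A1 lies at 0.33 to 1.65 TPM, and only the STEAP3 groups do not overlap.

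TFRC (ENSG00000072274, chromosome 3, 196027183 to 196082189, minus strand), the transferrin receptor and main entry route of iron, varied more between samples of one zone than between zones. Its level was 88.2, 26.1 and 68.1 TPM in TC replicates 1, 2 and 3, and 62.0, 63.6 and 23.9 TPM in the TM replicates. TC replicate 2 and TM replicate 3 were low and the other 4 samples lay between 62.0 and 88.2 TPM. TC replicates 1 and 3 were above every TM sample and TM replicate 3 was below every TC sample, so the groups overlapped in part. The means were 60.8 ± 31.7 TPM in TC and 49.9 ± 22.5 TPM in TM (SD, n = 3), and the difference was 0.24 with a standard error of 0.50 (95% interval -0.90 to 1.37, limma adjusted p = 0.866). That interval runs from 0.537-fold to 2.59-fold, so these samples do not bound the TFRC difference closely. The estimate was -0.21 without TM replicate 3, -0.11 without TC replicate 1 and 0.75 without TC replicate 2, so its direction rested on single samples.

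STEAP3 (ENSG00000115107, chromosome 2, 119223831 to 119265652, plus strand), the endosomal ferrireductase that turns transferrin-borne ferric iron into ferrous iron, was the one gene whose zones separated. It stood at 44.6, 44.2 and 34.9 TPM in TC, and at 48.9, 45.7 and 50.6 TPM in TM. Every TM sample was above every TC sample, and TC replicate 1 and TM replicate 2 were the closest pair. The means were 41.2 ± 5.48 and 48.4 ± 2.51 TPM (SD, n = 3). The difference was -0.23 with a standard error of 0.15 and did not pass the test (limma adjusted p = 0.505). Relative to the median shift of all genes it was -0.098. The estimate was negative under all alternatives, from -0.29 to -0.058.

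SLC11A2 (ENSG00000110911, chromosome 12, 50979401 to 51028566, minus strand), also called DMT1, moves ferrous iron out of the endosome into the cytosol. Its level was 22.0, 12.1 and 16.1 TPM in TC and 21.1, 19.8 and 15.6 TPM in TM. TC replicate 2 and TM replicate 3 were the lowest of their groups, as they were for TFRC, and the zones overlapped. The difference was -0.19 with a standard error of 0.24 (95% interval -0.73 to 0.36, limma adjusted p = 0.767).

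FTH1 (ENSG00000167996, chromosome 11, 61959718 to 61967660, minus strand), the ferritin heavy chain with the ferroxidase site that oxidizes iron for storage, was the most abundant of the 10 by its mean over all samples, at rank 89 among all annotated genes. It stood at 2628, 1938 and 2108 TPM in TC and at 1521, 2309 and 1456 TPM in TM. TM replicates 1 and 3 were below every TC sample, while TM replicate 2 was above TC replicates 2 and 3. The means were 2225 ± 360 and 1762 ± 475 TPM (SD, n = 3). This was the largest estimate of the 9, 0.36 with a standard error of 0.21, and it did not pass the test (95% interval -0.12 to 0.83, limma adjusted p = 0.458). As a ratio it was 1.28-fold (95% interval 0.923 to 1.78). Without TM replicate 2, the TM sample with the highest FTH1 level, it was 0.57 with an unadjusted p of 0.0125 (limma adjusted p = 0.228). Under median-of-ratios rescaling it was 0.54 with an unadjusted p of 0.0436 (limma adjusted p = 0.36). It was smaller, 0.22, after quantile normalization, 0.23 without TC replicate 1 and 0.24 without TM replicate 3.

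FTL (ENSG00000087086, chromosome 19, 48965301 to 48966878, plus strand), the light chain that aids mineral formation in the ferritin shell, was close to FTH1 in level, at rank 110. It stood at 1786, 1899 and 1527 TPM in TC and at 1294, 1416 and 1970 TPM in TM. TM replicate 3 was the highest of the 6 samples, TM replicates 1 and 2 were the lowest, and the groups overlapped. The means were 1738 ± 191 and 1560 ± 360 TPM (SD, n = 3), with a difference of 0.17 and a standard error of 0.18 (95% interval -0.24 to 0.59, limma adjusted p = 0.702). Without TM replicate 3 it was 0.35 with an unadjusted p of 0.0305 (limma adjusted p = 0.207), and with any other sample left out it lay between 0.051 (TM replicate 1) and 0.26 (TC replicate 3). After quantile normalization it was 0.10.

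Both chains build one shell, and their ratio sets its make-up. FTH1 over FTL was 1.47, 1.02 and 1.38 in TC, against 1.18, 1.63 and 0.739 in TM. The ratio was below 1 in TM replicate 3 alone, and the TM samples spanned the whole TC range. Together the chains took 0.442%, 0.384% and 0.364% of all TPM in TC and 0.281%, 0.372% and 0.345% in TM. The means were 0.396% ± 0.0404 and 0.333% ± 0.0466 (SD, n = 3), and TM replicate 2 was above TC replicate 3. They made up 90.4% to 94.8% of the summed TPM of the 10 genes.

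Ferritin genes have many processed pseudogene copies that can share reads with them, so their values are uncertain to that extent. The matrix listed 25 copies of FTH1, of which 13 were above 0 in any sample, and 16 of FTL, of which 2 were. FTH1 copies summed to 25.2, 13.7 and 58.2 TPM in TC and to 37.5, 123.7 and 14.4 TPM in TM, which was 0.703% to 5.09% of FTH1 and its copies together. TM replicate 2 held the largest copy sum and FTH1P16 was the highest copy, with a mean of 35.5 TPM. With all copies added, the difference was 0.34 for FTH1 and 0.17 for FTL. FTH1 also overlaps BEST1 on the other strand, which was at no more than 0.79 TPM.

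NCOA4 (ENSG00000266412, chromosome 10, 46005088 to 46030714, minus strand), the receptor that carries ferritin to lysosomes so that its iron is freed, was at 60.1, 48.9 and 49.6 TPM in TC and at 74.0, 45.2 and 54.7 TPM in TM. Replicate 1 was the highest of each group, and the groups overlapped. The difference was -0.11 with a standard error of 0.20 (95% interval -0.56 to 0.34, limma adjusted p = 0.842). NCOA4 per FTH1 was 0.0229, 0.0252 and 0.0235 in TC, against 0.0486, 0.0196 and 0.0376 in TM. The TC ratios lay close together, and the TM ratios fell on both sides of them.

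SLC40A1 (ENSG00000138449, chromosome 2, 189560579 to 189583758, minus strand), ferroportin, the known exporter of iron from cells, was the lowest of the 10. It was at 1.14, 0.89 and 0.33 TPM in TC and at 0.86, 0.39 and 1.65 TPM in TM. Only 2 samples reached 1 TPM, 1 in each zone, so it did not enter the test. The means were 0.787 ± 0.415 and 0.967 ± 0.637 TPM (SD, n = 3). With no filter on low values its difference was -0.12 with a standard error of 0.32 (95% interval -0.89 to 0.66, limma adjusted p = 0.893). The SLC40A1 difference was 0.083 without TC replicate 3 and 0.12 without TM replicate 3. With any other sample left out it lay between -0.34 and -0.13, so its direction rested on single samples. HAMP, the gene of hepcidin, which binds ferroportin and closes it, was at no more than 0.03 TPM.

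HMOX1 (ENSG00000100292, chromosome 22, 35380361 to 35394214, plus strand), heme oxygenase, which frees iron from heme, was at 27.3, 27.7 and 20.5 TPM in TC and at 22.6, 32.1 and 29.3 TPM in TM. The groups overlapped. The difference was -0.15 with a standard error of 0.19 (95% interval -0.59 to 0.30, limma adjusted p = 0.777), and relative to the median of all genes it was -0.011. BACH1, a heme-binding repressor of HMOX1, was at 13.3, 11.1 and 11.8 TPM in TC and at 7.94, 11.5 and 6.91 TPM in TM. Its difference was 0.44 with a standard error of 0.22, and it did not pass the test (limma adjusted p = 0.395). NFE2L2, which activates HMOX1, differed by -0.087 (limma adjusted p = 0.916).

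ACO1 (ENSG00000122729, chromosome 9, 32384603 to 32454769, plus strand), the cytosolic aconitase that becomes iron regulatory protein 1 when it loses its iron-sulfur cluster, varied little. It was at 52.5, 46.2 and 48.5 TPM in TC and at 53.5, 49.6 and 57.3 TPM in TM. TM replicates 1 and 3 were above every TC sample, but TM replicate 2 was not. The means were 49.0 ± 3.19 and 53.5 ± 3.87 TPM (SD, n = 3). The difference was -0.12 with a standard error of 0.13 and the narrowest interval of the 9 (-0.42 to 0.18, limma adjusted p = 0.713).

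IREB2 (ENSG00000136381, chromosome 15, 78437431 to 78501456, plus strand), iron regulatory protein 2, which is controlled by degradation of the protein, was at 12.7, 6.11 and 5.70 TPM in TC and at 16.8, 7.81 and 5.85 TPM in TM. Replicate 1 was the highest of each group, as for NCOA4, and the other 4 samples lay between 5.70 and 7.81 TPM. The difference was -0.24 with a standard error of 0.41 (95% interval -1.17 to 0.69, limma adjusted p = 0.832). ACO1 over IREB2 was 4.14, 7.55 and 8.50 in TC, against 3.19, 6.35 and 9.80 in TM. ACO1 transcripts thus outnumbered IREB2 transcripts in all 6 samples, least in replicate 1 of each zone. FBXL5, the iron-sensing ubiquitin ligase subunit that targets iron regulatory proteins, stood at 27.1 to 36.9 TPM and differed by -0.018 (limma adjusted p = 0.977).

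**Figure D2:**
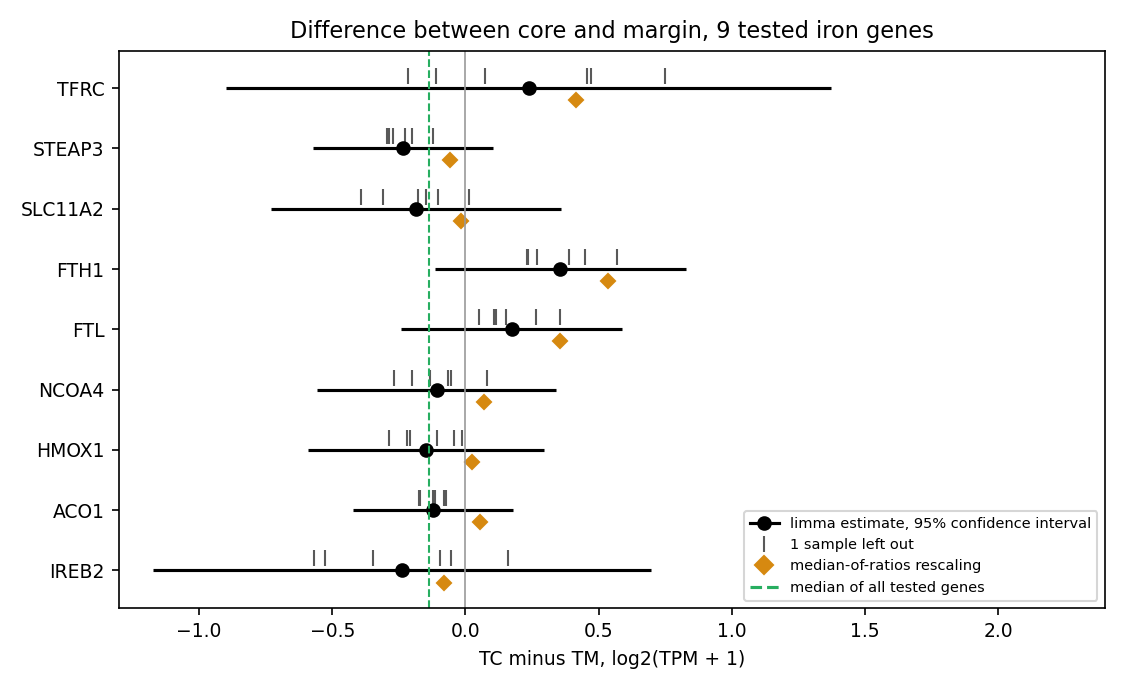
Difference between TC and TM in log2(TPM + 1) for the 9 tested genes: limma estimates with 95% confidence intervals (black), the estimates with 1 sample left out in turn (ticks), those after median-of-ratios rescaling (diamonds), and the median of all tested genes (dashed, -0.14). All 9 intervals include 0, the widest being that of TFRC (-0.90 to 1.37), and the estimates of FTH1, FTL, STEAP3, ACO1 and HMOX1 keep their sign when a sample is left out.

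In order of mean level in TC, FTH1 stood above FTL and both stood above all others, with no overlap of sample ranges. TFRC, NCOA4 and ACO1 followed at 60.8, 52.9 and 49.0 TPM, and these neighbours overlapped in range. STEAP3 at 41.2 TPM did not overlap ACO1 above it or HMOX1 below it, but lay within the TFRC range. HMOX1 at 25.2 TPM overlapped SLC11A2 at 16.8 TPM, which overlapped IREB2 at 8.16 TPM, and SLC40A1 was last and overlapped none. In TM the FTH1 and FTL ranges overlapped, and NCOA4, ACO1, TFRC and STEAP3 overlapped in turn at 58.0, 53.5, 49.9 and 48.4 TPM. Below them HMOX1 at 28.0 TPM overlapped TFRC but neither STEAP3 nor SLC11A2, and SLC11A2 and IREB2 overlapped at 18.8 and 10.1 TPM.

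The genes differed in how much they varied among samples of one zone. The within-group SD of log2(TPM + 1), pooled over both zones, was 0.85 for TFRC, 0.65 for IREB2 and 0.097 for ACO1, with a median of 0.27 over all tested genes. TFRC exceeded 96.9% of tested genes and IREB2 exceeded 93.2%, while ACO1 exceeded 4.42%. Spread depends on level, so each gene was also set beside genes within 0.5 log2 units of its own mean. By that measure TFRC exceeded 98.7% of 1586 genes, IREB2 93.3%, ACO1 8.20% and STEAP3 26.4%. FTH1 exceeded 87.3% of the 55 genes near its level and FTL 68.4% of 57. The TFRC samples spanned 3.68-fold from lowest to highest and the IREB2 samples 2.94-fold.

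**Figure D3:**
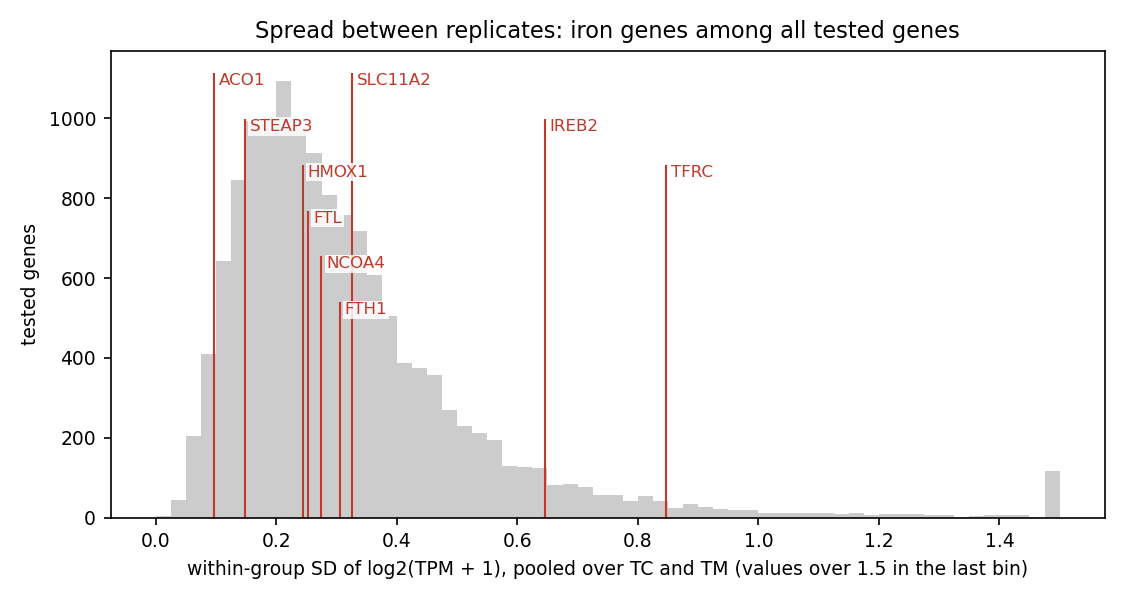
Histogram of the within-group SD of log2(TPM + 1) for 13861 tested genes (grey, y axis in genes), with the 9 tested iron genes marked by red lines of arbitrary height. ACO1 (0.097) lies near the low end, TFRC (0.85) and IREB2 (0.65) lie in the upper tail, and the other 6 lie between 0.15 and 0.33.

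The samples with low TFRC were also those with high FTL. FTL was highest of its group in TC replicate 2 and in TM replicate 3, where TFRC was lowest. TFRC per FTL was 0.0137 and 0.0122 in those samples and 0.0446 to 0.0493 in the other 4, a 4.06-fold span. TFRC per FTH1 was 0.0335, 0.0134 and 0.0323 in TC, against 0.0408, 0.0276 and 0.0164 in TM. The pattern crosses the zones and was noticed in the data, and with 6 samples it is a description. TM replicate 3 also differs from the rest in its table, with a TPM sum of 994381 and only 4 of 259 unannotated loci above 0, against 203 to 214 in the others. TC replicate 2 did not differ in these measures. Erythroid markers summed to 1.10 TPM in TC replicate 2 and to 6.93 and 3.86 TPM in TC replicates 1 and 3. They summed to 0.49 TPM in TM replicate 3 and to 0.29 and 4.82 TPM in TM replicates 1 and 2. HBB, the beta-globin gene, was at 5.64, 0.51 and 1.34 TPM in TC and at 0, 3.07 and 0.25 TPM in TM. In TC it was highest and lowest in the same samples as TFRC. In TM it was lowest in replicate 1, where TFRC was at 62.0 TPM, and not in replicate 3, where TFRC was lowest. HBA1 reached 0.83 TPM and ALAS2 1.75 TPM, while KLF1, HBA2 and AHSP were at 0 in all 6. Erythroid cells here would be from the mouse host, and their part in the TFRC values was not tested.

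The genes whose profile over the 6 samples lay closest to that of TFRC, by the root mean square difference of centred log2(TPM + 1), were IL11 (0.17), DPY19L1P1 (0.21) and HDC (0.22). The TFRC profile itself had a root mean square of 0.70 about its mean. IL11, a cytokine gene, was at 13.5, 4.67 and 11.3 TPM in TC and at 13.1, 13.1 and 4.45 TPM in TM. HDC, the gene of histidine decarboxylase, was at 4.01, 0.06 and 2.81 TPM in TC and at 2.61, 1.93 and 0.03 TPM in TM. Both were lowest in the samples where TFRC was lowest. For FTH1 (own value 0.31) the closest were PID1 and TGFB2 at 0.075 and PRELID2 at 0.081. For SLC40A1 (own value 0.34) they were SCAND2P at 0.056, DHRS12 at 0.058 and FEZF1 at 0.064. These neighbours were the closest of 13861 genes and are a description.

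**Figure D4:**
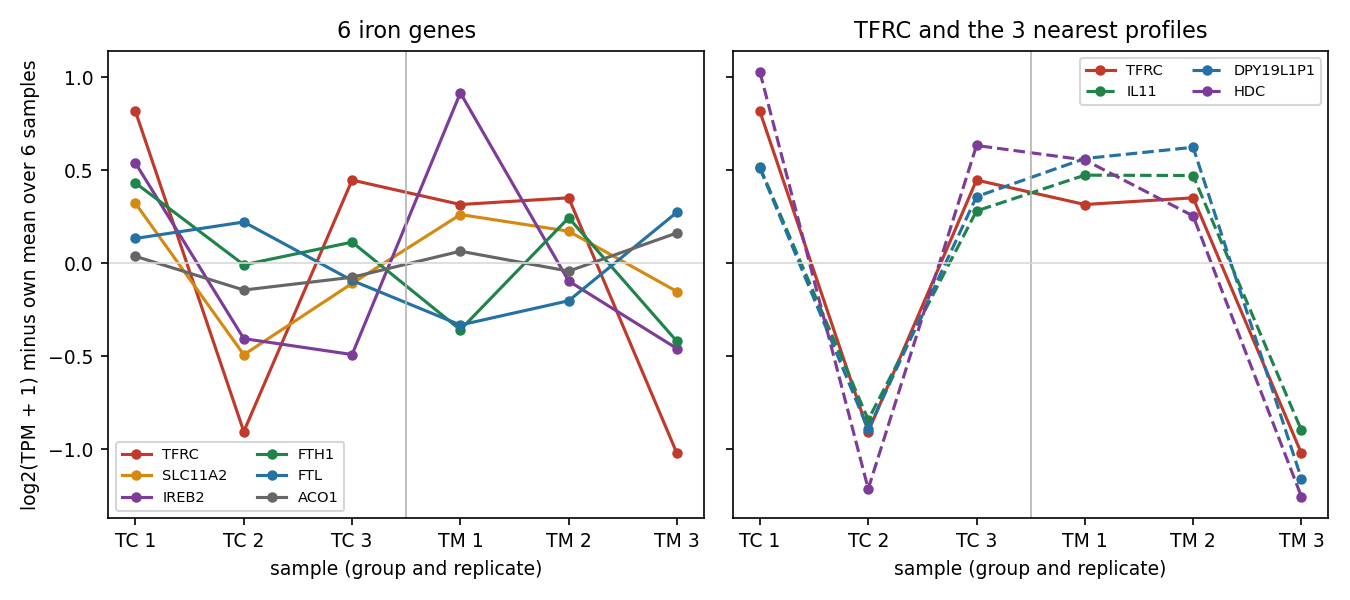
log2(TPM + 1) minus each gene's own mean in the 6 samples, for 6 iron genes (left) and for TFRC with its 3 nearest profiles (right). Lines join samples only to guide the eye, TFRC drops in TC replicate 2 and TM replicate 3, where FTL is the highest of its group, and ACO1 stays near 0.

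The wider iron pathways were followed through 8 lists with 102 other genes, of which 86 were tested. None was called, and 2 were higher and 12 lower in TC at an unadjusted p under 0.05, or 16.3% of the 86 against 16.2% of all tested genes. TC and TM did not overlap for 18 of them, or 20.9%, against 22.2%. The median difference of the 86 was -0.10, and 31 were higher and 55 lower. The higher ones were 36.0% of the 86, against 33.0% of all tested genes. Among all tested genes at an unadjusted p under 0.05, 88% were lower in TC. The lists as a whole thus lay near the background of these samples. Single lists held only 4 to 24 tested genes, and their shares at an unadjusted p under 0.05 ran from 0% to 40%.

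Among 12 tested genes of uptake and ferrireduction, 1 had an unadjusted p under 0.05. This was SLC39A14, a zinc transporter that also carries iron not bound to transferrin, at 17.1, 18.0 and 18.7 TPM in TC and at 27.7, 24.7 and 20.9 TPM in TM (difference -0.42, limma adjusted p = 0.264). The zones did not overlap for this gene. TF, transferrin itself, was at 0.04 to 0.14 TPM and was not tested. Among 5 tested genes of iron chaperones and storage, ATG9A, a membrane protein of autophagosome formation, differed by -0.58 (limma adjusted p = 0.191) and HERC2, a ubiquitin ligase that acts on NCOA4, by -0.56 (limma adjusted p = 0.199). Among 5 tested genes of export and its control, 0 had an unadjusted p under 0.05.

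Of 12 genes of iron sensing and transcriptional control, all tested, 3 had an unadjusted p under 0.05. This was 25% of the list, against 16.2% of all tested genes. All 3 were lower in TC, as were 88% of all tested genes at that level. MYC, a transcription factor that acts on TFRC, IREB2 and FTH1, was at 98.2, 107.8 and 109.4 TPM in TC and at 199.9, 140.1 and 132.7 TPM in TM. All TM samples were above all TC samples, and the difference was -0.56 (limma adjusted p = 0.168). MAFG and MAFK, small Maf partners of BACH1 and NFE2L2, differed by -0.60 and -0.40 (limma adjusted p = 0.182 and 0.282). KEAP1, which holds NFE2L2 in check, differed by -0.15 (limma adjusted p = 0.679).

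Among transcripts with other reported IREs, EPAS1, the hypoxia factor HIF-2 alpha, differed by -0.19 (limma adjusted p = 0.734), and its 5′ UTR matched with 1 unpaired base allowed. CDC42BPA, a kinase, differed by -0.25 (limma adjusted p = 0.774) and held no match. FTH1 and FTL, which also have a match in a 5′ UTR, had positive estimates and EPAS1 a negative one, and none of these passed the test.

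Of 14 tested genes of heme synthesis and breakdown, 1 had an unadjusted p under 0.05. TMEM14C, which moves a heme precursor within mitochondria, was at 181.4, 188.2 and 207.3 TPM in TC and at 157.5, 142.2 and 160.9 TPM in TM. Every TC sample was above every TM sample, and the difference was 0.32 (limma adjusted p = 0.233). Of 24 tested genes of mitochondrial iron and Fe-S assembly, 3 were lower and 1 higher in TC at that level. HSPA9, the mitochondrial chaperone that hands on new clusters, was at 123.6, 101.3 and 100.5 TPM in TC and at 175.8, 166.4 and 148.9 TPM in TM (difference -0.59, limma adjusted p = 0.0964). The others were ABCB8, a mitochondrial transporter, at -0.65 (limma adjusted p = 0.182), NFS1, the cysteine desulfurase that supplies sulfur, at -0.63 (limma adjusted p = 0.229), and CISD2, a cluster-bearing membrane protein, at 0.48 (limma adjusted p = 0.194). Of 11 tested genes of cytosolic Fe-S assembly, 2 were lower. NDOR1, a reductase that supplies electrons for cluster assembly, was at 4.92, 4.99 and 3.91 TPM in TC and at 9.65, 8.94 and 12.1 TPM in TM. Its difference of -0.998 had the smallest adjusted p of the 86 genes (limma adjusted p = 0.0846). CIAO1, which targets clusters to their acceptor proteins, stood at 25.3 to 25.9 TPM in TC and 34.7 to 37.1 TPM in TM (difference -0.48, limma adjusted p = 0.137).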

How the data were processed

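RNA-seq libraries were made from total RNA with a TruSeq kit. According to the study's methods, the authors trimmed reads with SeqPrep and Sickle, aligned them with HISAT2, assembled them with StringTie, quantified genes with RSEM and deposited TPM values. The submitters' processing notes name hg38, and the annotation release is not given in the sources used here. No step that separates mouse from human reads was described. The study's DESeq2 test needs counts, so it was not run on TPM.

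The matrix held 60930 rows, 60671 annotated genes and 259 assembled loci left out of the tests, with 0 other columns of per-sample values. Groups came from sample titles. Genes with 1 TPM in 3 or more samples were compared as log2(TPM + 1) by limma 3.58.1 in R 4.3.3, two-sided, with a mean-variance trend and no covariate. The pseudocount understates changes of low genes. Depth is unknown. The members and gene lists were chosen with earlier results of these data known. Named genes were the 10 members, up to 4 genes per list with the smallest unadjusted p under 0.05, 10 other genes chosen by role and the 3 nearest profiles of TFRC, FTH1 and SLC40A1. Gene models and UTR sequences came from GENCODE v29 on GRCh38. Alternatives were another pseudocount, filters, scalings, moderation, the replicate number as a block, added loci or copies, and leaving out each sample. Some results that follow from the gene rule are not reported here.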

Additional observations from a re-analysis of the deposited data

How the results depend on the processing

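The limits are few samples, no read depth and TPM, which ties each gene to the rest of its library. Over all tested genes the median difference was -0.14, 0.014 after quantile normalization and 0.021 after median-of-ratios rescaling, and the genes at an unadjusted p under 0.05 that were lower in TC made up 88%, 60.4% and 57%. None of the 9 iron genes was called under any of 16 alternatives, and the smallest adjusted p over them was 0.207 (FTL).

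The number of all genes called, 19, became 7 with a pseudocount of 0.1, 1 with no filter on low values, 4 after quantile normalization, 6 after median-of-ratios rescaling, 12 without a trend, 47 with robust moderation and 1 to 17 with a sample left out. It was 1 without TC replicate 3 or TM replicate 1, 4 without TC replicate 1 and 9 without TM replicate 2. The split was 1 higher and 18 lower in TC, 11 and 5 without TC replicate 2, and 6 and 3 without TM replicate 2. With the replicate number as a block it was 1. Deviations of same-numbered samples correlated at 0.21, -0.12 and -0.16, and only replicate 1 samples correlated best with their own number. With 3 samples per group, centred on the group mean, these values cannot show or exclude pairing. The labels name no pairs, and the main test used none. The cause of these changes was not tested.

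Iron genes at an unadjusted p under 0.05 numbered 0, 1 after median-of-ratios rescaling (FTH1), and 0 to 1 with a sample left out (FTH1 without TM replicate 2, FTL without TM replicate 3). The sign turned in 11 of 144 refits of a tested iron gene. After quantile normalization SLC11A2 was 0.016, HMOX1 0.039 and NCOA4 0.0089. After median-of-ratios rescaling ACO1 was 0.054, HMOX1 0.025 and NCOA4 0.069. With a sample left out TFRC ran from -0.21 to 0.75, SLC11A2 from -0.39 to 0.013, IREB2 from -0.57 to 0.16 and NCOA4 from -0.27 to 0.080. FTH1, FTL and STEAP3 kept their sign in all 16. The difference in ferritin share was 0.0634 percentage points, and 0.0557 without mitochondrially encoded genes.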
